A study of Mus musculus with 6 samples.

Results

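Collagen genes were followed in poly-A RNA of the main olfactory epithelium, dissected from C57BL/6J mice. Besides the epithelium with its sensory neurons, this nasal tissue includes a collagen-rich connective tissue, the lamina propria. Members were all symbols of the count table made of Col, a number, a and a number, which took 44 of 53686 symbols. Of these, 43 passed the filter on low counts, and Col19a1 did not. The groups had 3 libraries each, from wild-type mice in the first and, in the second, mice hemizygous for the 5x21-OR1A1 transgene on the same strain. The labels used here give neither age nor sex, nor what drives the transgene or how many founder lines were used. They name replicates without naming animals, so the spread behind each p-value is that between libraries. Xist and Ddx3y counts put 1 female and 2 male libraries in the wild-type group, and 2 female and 1 male in the other. Neither group thus came from a single animal, but libraries of the same sex within a group may be technical replicates.

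Collagens are proteins of 3 chains wound into a triple helix, either identical chains or products of different genes. Fibrillar collagens assemble into the long fibrils of bone, skin, tendon and connective tissue, while cartilage builds its own thin fibrils from other chains. Collagen IV forms the sheet-like network of basement membranes, which in the nose separates the olfactory epithelium from the lamina propria and surrounds vessels and nerve bundles. Type XXVII and XXIV collagen, and the chains of types II and XI, also belong to the fibril-forming family. Here Col2a1, Col11a1, Col11a2 and Col27a1 were counted with the cartilage collagens and Col24a1 with the fibrillar ones.

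No collagen gene passed the threshold between genotypes. By edgeR's quasi-likelihood test, 0 of 43 had an adjusted p under 0.05, against 2.71% of all 19267 genes tested. Over all genes 0.519% were called higher and 2.2% lower in 5x21-OR1A1 tissue. At an unadjusted p under 0.05 there were 5 collagens, Col27a1, Col9a3, Col12a1, Col14a1 and Col8a2, against 17.1% of all genes. DESeq2 called 1 collagen, Col27a1, against 6.29% of all genes, and limma-voom called 0 against 2.61%. The log2 fold change, 5x21-OR1A1 against wild-type, was above 0 for 34 collagens and below 0 for 9, with a median of 0.20 against 0.016 over all tested genes. Without wild-type library 2 the median was 0.10, and without wild-type library 1 it was 0.35.

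**Figure D1:**
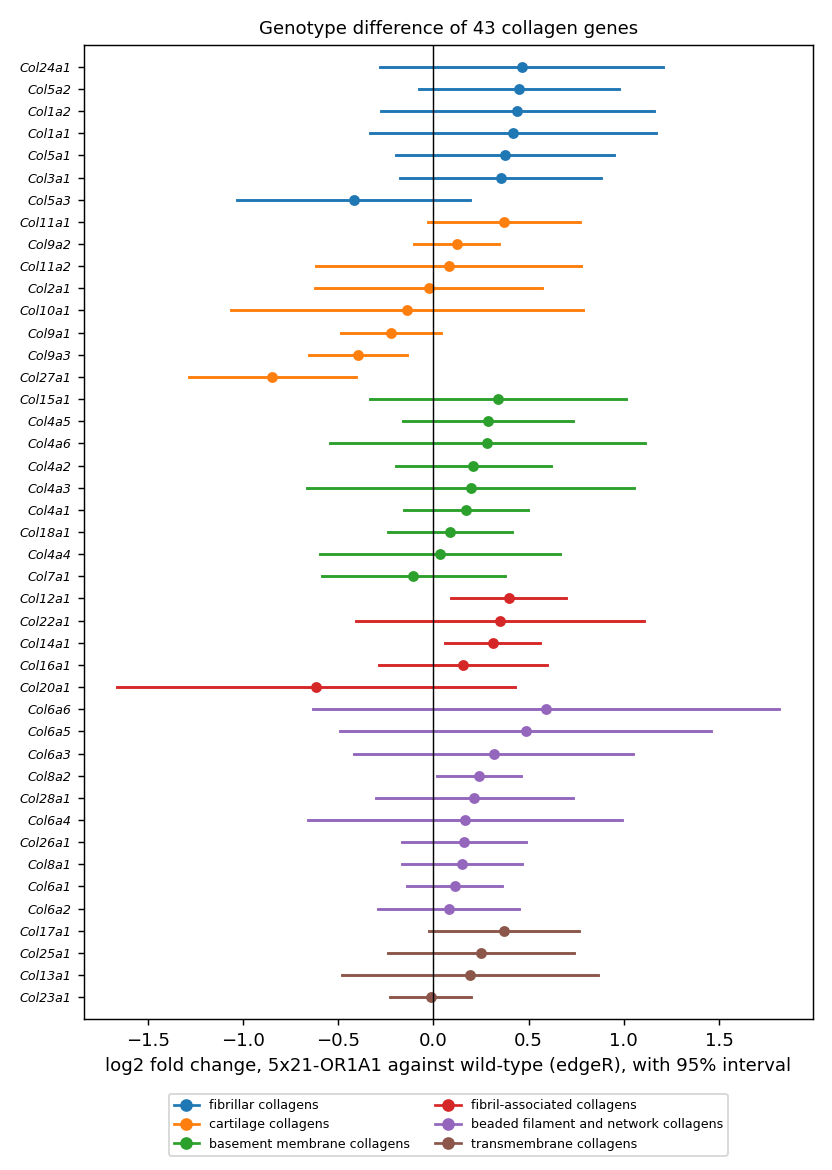
Log2 fold change (x axis) of each tested collagen gene (y axis, coloured by class), with the 95% interval of the edgeR fit as bars. Col27a1, at -0.85, lies lowest, and 6 of 7 fibrillar collagens lie above 0 with intervals that include 0.

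The level of collagen RNA varied more among wild-type libraries than between the group means. Levels are given as CPM, the counts of a gene scaled to a common library total with TMM factors. All tested collagens together took 0.635, 0.286 and 0.589% of counts in wild-type libraries 1, 2 and 3, and 0.640, 0.710 and 0.625% in 5x21-OR1A1 libraries 1, 2 and 3. Wild-type library 2 thus stood apart, with a summed level 0.454 times the mean of the other wild-type libraries. It was the lowest of the 6 libraries in 24 of 43 collagens, or 55.8%, against 24.7% of all tested genes. The median collagen had a highest wild-type value 1.80 times its lowest, against 1.20 times within the 5x21-OR1A1 group. Results are therefore given with and without that library where it moves them by over 1.5 times.

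**Figure D2:**
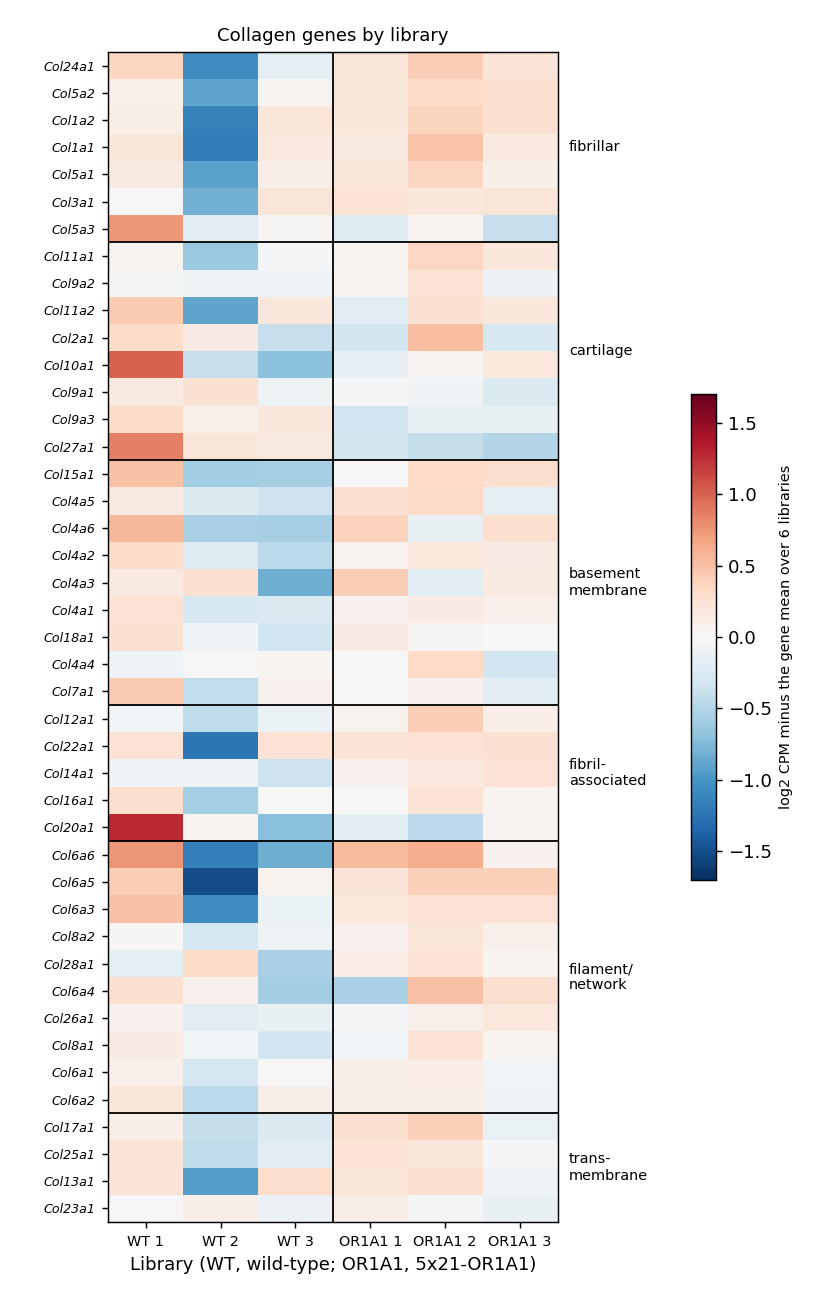
Level of each tested collagen gene (rows, grouped by class) in each library (columns), as log2 of CPM relative to the gene's mean over the 6 libraries; the colour scale runs from -1.7 to 1.7. Wild-type library 2 has the lowest of the 6 values for 6 of 7 fibrillar collagens and for 3 of 9 basement membrane collagens.

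Fibrillar collagens made up most of the collagen counts. Their summed level was 5215, 2150 and 5311 CPM in wild-type and 5303, 6251 and 5440.2 CPM in 5x21-OR1A1 libraries 1 to 3. The groups overlapped, since wild-type library 3 lay above 5x21-OR1A1 library 1, and wild-type library 2 lay far below all others. The means were 4225 ± 1798 and 5665 ± 512 CPM (SD, n = 3 each), a log2 ratio of 0.42 that was 0.11 without wild-type library 2. None of the 7 fibrillar genes passed, 6 had values above 0, and the median log2 fold change was 0.42, or 0.11 without that library.

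Col1a1 and Col1a2 encode the chains of type I collagen, the main protein of bone and fibrous tissue. In GRCm38 Col1a1 lies on the plus strand of chromosome 11 at 94936224 to 94953042, and Col1a2 on the plus strand of chromosome 6 at 4504814 to 4541544. Col1a1 was at 2575, 992 and 2499 CPM in wild-type and 2484, 3119.8 and 2508 CPM in 5x21-OR1A1 libraries. Wild-type library 2 was again the low one, and the other 5 libraries overlapped. The log2 fold change of Col1a1 was 0.42 with a 95% interval from -0.33 to 1.17 (SE 0.33; edgeR adjusted p = 0.572), and 0.10 without wild-type library 2. The interval of the fold itself ran from 0.794 to 2.25, so these libraries leave a wide range of folds possible. Col1a2 stood at 2137, 884 and 2263 CPM in wild-type and at 2249, 2556 and 2367 CPM in 5x21-OR1A1 tissue, with a log2 fold change of 0.44 (SE 0.31), or 0.13 without wild-type library 2. Both chains kept nearly the same relation in every library, with 1.06 to 1.22 counts of Col1a1 for each count of Col1a2.

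Type III collagen, a homotrimer of Col3a1 found beside type I in vessels and loose connective tissue, was less uneven. Col3a1 was at 344, 196 and 399 CPM in wild-type and 405, 393 and 399.6 CPM in 5x21-OR1A1 libraries, where the transgenic values lay close together. Its log2 fold change was 0.35 (SE 0.23; edgeR adjusted p = 0.485) and 0.11 without wild-type library 2. Counts of Col1a1 per count of Col3a1 ranged from 5.07 in wild-type library 2 to 7.93 in 5x21-OR1A1 library 2, so wild-type library 2 was lower in Col1a1 than in Col3a1.

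Type V collagen starts type I fibrils and limits their width. Col5a2, named here after its values were seen, was at 91.0, 45.8 and 88.0 CPM in wild-type and 98.1, 106 and 103 CPM in 5x21-OR1A1 libraries. All transgenic values lay above all wild-type values, as they did for 4 collagens in all, against 11.4% of all tested genes. The log2 fold change of Col5a2 was 0.45 (SE 0.23; edgeR adjusted p = 0.366), and 0.20 without wild-type library 2. Col5a2 and Col3a1 lie tail to tail on chromosome 1, 24614 bases apart. The partner chain Col5a1, likewise named after its values were seen, was at 58.2, 27.9 and 56.1 CPM in wild-type and 60.4, 67.8 and 56.2 CPM in 5x21-OR1A1 libraries (log2 fold change 0.38, or 0.11 without wild-type library 2). The third type V chain, Col5a3, was at 5.97, 3.13 and 3.63 CPM against 3.08, 3.71 and 2.73 CPM. Its value was -0.42 (SE 0.27; edgeR adjusted p = 0.477), and -0.09 without wild-type library 1, the highest library. Col24a1, a minor fibrillar chain known from forming bone, was at 4.29, 1.59 and 2.97 CPM in wild-type and 3.84, 4.46 and 3.87 CPM in 5x21-OR1A1 tissue, with a log2 fold change of 0.46 (SE 0.32), or 0.16 without wild-type library 2.

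**Figure D3:**
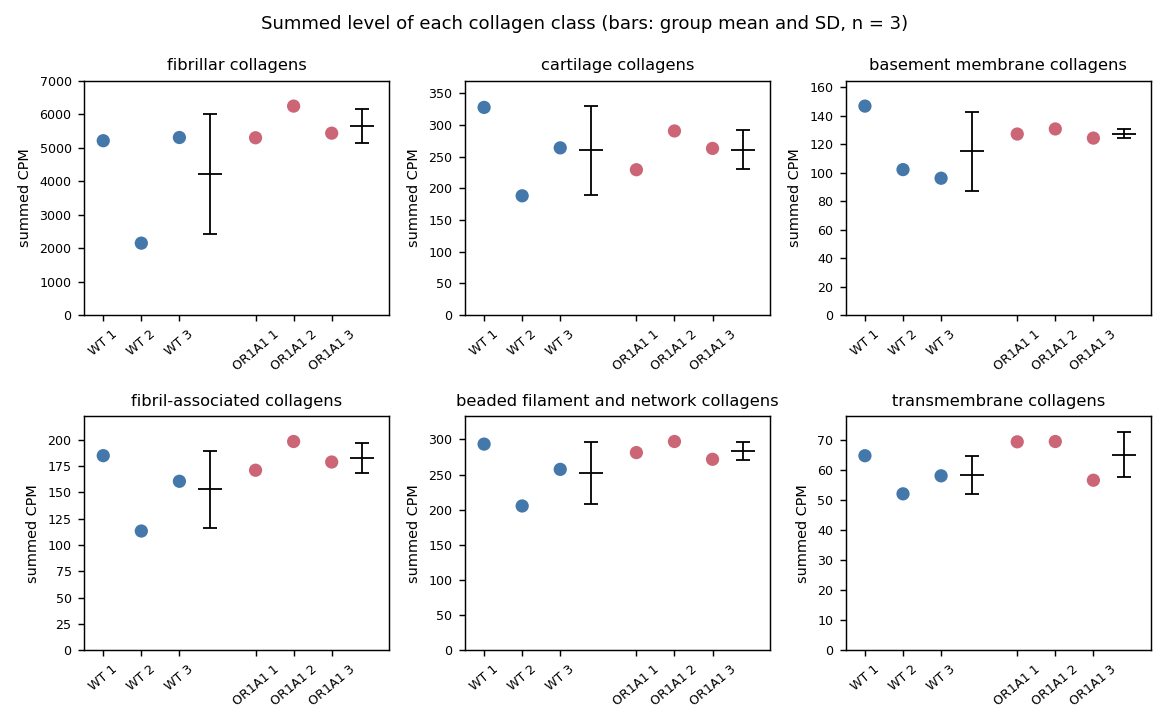
Summed level in CPM (y axis, from 0) of each collagen class in each library (x axis; blue points wild-type, red points 5x21-OR1A1), with the group mean as a horizontal line and the SD as bars (n = 3 each). Fibrillar collagens reach 5215 and 5311 CPM in wild-type libraries 1 and 3 and 2150 CPM in library 2, while no other class passes 328 CPM.

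Upstream of their start sites, 2 fibrillar genes differed in base composition. The 120 bases before the RefSeq start site (GRCm38.p6, plus strand) of Col5a1 at chr2:27886305-27886424 and of Col3a1 at chr1:45311418-45311537 are shown because both genes were low in the same library and yet differ in base composition. Capitals mark a GC box, the letters GGGCGG, searched as such and as CCGCCC on the other strand.
Col5a1: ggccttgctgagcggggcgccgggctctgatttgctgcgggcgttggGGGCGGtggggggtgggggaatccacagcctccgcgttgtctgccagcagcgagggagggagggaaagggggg
Col3a1: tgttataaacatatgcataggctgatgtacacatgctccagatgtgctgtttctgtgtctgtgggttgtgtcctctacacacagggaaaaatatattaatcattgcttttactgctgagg
The Col5a1 stretch is 72.5% G and C, and the Col3a1 stretch is 40% G and C. Within 250 bases before the start, Col5a1 had 2 GC boxes and Col3a1 had 0. Of the 5 fibrillar genes with a RefSeq promoter, 3 held a GC box in that window. Of the 44 collagens, 35 had a promoter in the RefSeq table, and 21 of these, or 60%, held a GC box in those 250 bases, against 35.4% of 27025 genes. A CCAAT box (CCAAT or ATTGG) was found in 37.1% of collagen promoters against 37.5% of all, and TATAAA or TTTATA in 14.3% against 14.3%. Such matches describe the letters in the window and do not show a bound site.

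Fibrillar collagen and bone markers were low in the same library. Of 10 bone markers, 10 were lowest in wild-type library 2, and 0 passed the test between genotypes. Their summed level was 412, 179 and 451 CPM in wild-type and 392, 401 and 455 CPM in 5x21-OR1A1 libraries. Sp7, the osteoblast transcription factor, was at 18.1, 4.34 and 12.7 CPM in wild-type libraries, and Ibsp, a bone matrix sialoprotein, at 111, 53.1 and 133 CPM. Wild-type library 2 held 0.416 times the mean of the other wild-type libraries for bone markers and 0.408 times for fibrillar collagens. For 12 fibroblast markers the same ratio was 0.832, with sums of 1104, 942 and 1160 CPM in wild-type and 1129, 1136 and 1186 CPM in 5x21-OR1A1 tissue. By gene, 9 of the 12 fibroblast markers were also lowest in wild-type library 2, as were 9 of 10 endothelial markers. The share was 24.7% of all tested genes, and 2 of 10 glia markers were lowest there. The median log2 difference of that library from the mean of the other wild-type libraries was -1.27 for bone and -0.32 for fibroblast markers. Cells of a given type could be fewer, or each could hold less RNA, and bulk libraries cannot tell these apart.

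Set against each marker list, the fibrillar sum behaved differently. Fibrillar CPM per CPM of bone markers was 12.7, 12.0 and 11.8 in wild-type and 13.5, 15.6 and 12.0 in 5x21-OR1A1 libraries, a difference of 0.17 on the log2 scale. Wild-type library 2 lay between the other wild-type libraries here. Per CPM of fibroblast markers the values were 4.72, 2.28 and 4.58 in wild-type and 4.70, 5.50 and 4.59 in 5x21-OR1A1 tissue, a log2 difference of 0.42, or 0.08 without that library. Every fibroblast, bone and cartilage marker in the table had counts in all 6 libraries. The collagen counts therefore cannot be assigned to the lamina propria alone, and the part of bone in them was not tested. Of 12 fibroblast markers, 9 lay above 0 and 3 below, with a median log2 fold change of 0.14, or 0.028 without wild-type library 2. Dpt had the largest positive value, 0.84 (SE 0.33; edgeR adjusted p = 0.252). By edgeR 1 of the 12 was called lower, against 2.2% of all tested genes, and 0 were called higher, against 0.519%. The one called was Pi16, a marker of adventitial fibroblasts. Pi16 went from 20.5, 23.5 and 18.4 CPM to 7.77, 12.0 and 10.4 CPM, by -1.05 on the log2 scale (SE 0.17; edgeR adjusted p = 0.0201).

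**Figure D4:**
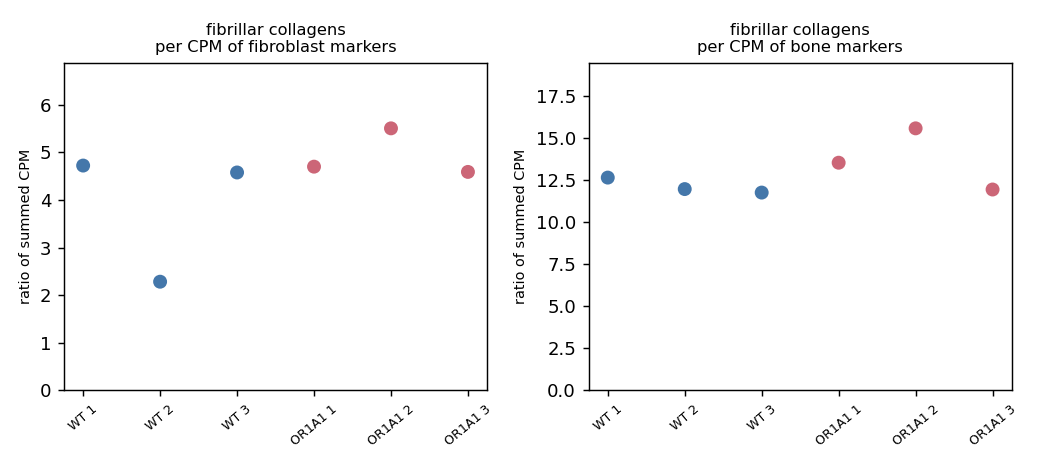
Ratio of the summed CPM of fibrillar collagens to that of fibroblast markers (left) and bone markers (right) in each library (blue wild-type, red 5x21-OR1A1; y axes from 0, no unit). Wild-type library 2 is low at 2.28 on the left and lies within the other wild-type libraries' range on the right, at 12.0 between 11.8 and 12.7.

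Cartilage collagens had no common direction. Their summed level was 328, 188 and 264 CPM in wild-type and 229, 291 and 263 CPM in 5x21-OR1A1 libraries, with means of 260.0 ± 69.9 and 261 ± 30.7 CPM (SD, n = 3 each). The groups overlapped fully, with both extremes among the wild-type libraries. None of 8 members passed, 3 lay above 0 and 5 below, and the median log2 fold change was -0.08, or 0.13, -0.18 and -0.26 without wild-type libraries 1, 2 and 3. Of the 8, Col11a1 and Col11a2 were lowest in wild-type library 2.

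Col27a1, a fibril-forming chain of developing cartilage, came closest to the threshold. The gene lies on the plus strand of chromosome 4 at 63214004 to 63334991 in GRCm38. It was at 27.3, 17.4 and 16.8 CPM in wild-type and 12.1, 11.4 and 10.7 CPM in 5x21-OR1A1 libraries. The transgenic values lay close together and below all wild-type values, which held for 2 collagens, against 12.5% of all tested genes. Its means were 20.5 ± 5.92 and 11.4 ± 0.711 CPM (SD, n = 3 each), and the log2 fold change was -0.85 (SE 0.19, 95% interval -1.29 to -0.41; edgeR adjusted p = 0.0639). The call depended on the fit. The adjusted p of Col27a1 was 0.000711 with DESeq2, 0.0110 with edgeR and no filter on low counts, where 2.34% of genes were called, and 0.0375 with edgeR without wild-type library 1, where 3.19% were. Over all alternatives the adjusted p ran from 0.000711 to 0.221 and the log2 fold change from -0.97 to -0.59. By Xist and Ddx3y counts, wild-type library 1 and 5x21-OR1A1 libraries 2 and 3 came from females and the rest from males. Col27a1 differed by -1.31 between the female libraries (1 wild-type, 2 transgenic) and by -0.50 between the male ones (2 wild-type, 1 transgenic), with no test within a sex.

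The 120 bases before the RefSeq start of Col27a1, at chr4:63215292-63215411 on the plus strand of GRCm38.p6, are shown for the collagen nearest to a call. The GENCODE annotation starts the gene earlier, at 63214004, so this stretch lies inside the gene span given above. Capitals mark the GC box of Col27a1, the only one in the 250 bases searched.
Col27a1: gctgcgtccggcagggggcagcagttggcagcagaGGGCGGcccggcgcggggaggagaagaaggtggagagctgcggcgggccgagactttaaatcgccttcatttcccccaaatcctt
The box began 85 bases before the RefSeq start site, and the one shown for Col5a1 began 73 bases before its own.

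Types IX and XI sit on or in the thin fibrils of cartilage with type II. Col9a3, one of 3 type IX chains and named after its values were seen, was at 17.4, 14.9 and 16.0 CPM in wild-type and 11.0, 12.8 and 12.8 CPM in 5x21-OR1A1 libraries. These groups did not overlap, and the log2 fold change was -0.40 (SE 0.11; edgeR adjusted p = 0.123). Of its exon bases 6.07% lie in Tcfl5 on the opposite strand, and libraries without strand cannot tell reads there apart. The other type IX chains did not pass either. Col9a1 was at 21.3, 22.9 and 18.1 against 18.9, 18.3 and 16.1 CPM (log2 fold change -0.22, or -0.14 without wild-type library 2), and Col9a2 at 24.8, 24.3 and 24.2 against 26.4, 29.9 and 23.7 CPM (0.12). Col9a2 was the steadiest of the cartilage collagens in wild-type tissue, with a SD of 0.316 CPM.

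Col11a1 was at 36.2, 22.5 and 33.9 CPM in wild-type and 35.8, 44.1 and 39.6 CPM in 5x21-OR1A1 libraries, with overlapping groups. It encodes a type XI chain that cartilage shares with bone and other tissues, and its log2 fold change was 0.37 (SE 0.17; edgeR adjusted p = 0.329), or 0.19 without wild-type library 2. Col11a2, its partner chain, varied more, at 166, 65.1 and 139 CPM in wild-type and 106, 146 and 139 CPM in 5x21-OR1A1 tissue. The value of Col11a2 was 0.08, and it turned to -0.22 without wild-type library 2 and to -0.08 with sex as a covariate. Col2a1, the chain of type II collagen and named after its values were seen, had a value of -0.02, which was 0.026 without wild-type library 2 and 0.12 without library 1.

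Wild-type library 1 was high in several cartilage genes, but not in all of them. Of 11 cartilage markers, 6 were highest there of the 6 libraries, against 15.1% of all tested genes, and 1, Cnmd, was lowest there. This was not particular to cartilage, since 5 of 7 blood, 4 of 10 endothelial and 4 of 10 smooth muscle markers were highest there too. Of 10 glia and 11 mature neuron markers, 0 were. Col10a1, the collagen of hypertrophic cartilage and named after its values were seen, was at 19.5 CPM there against 7.36 and 5.98 CPM in the other wild-type libraries and 8.80, 10.1 and 11.0 CPM in 5x21-OR1A1 libraries. Its log2 fold change was -0.14 (SE 0.40; edgeR adjusted p = 0.899), or -0.35 without wild-type library 2. Acan, the large proteoglycan of cartilage, also picked after its values were seen, was at 15.2 CPM in wild-type library 1 against 5.96 and 7.26 CPM in its group. Cnmd, the cartilage protein chondromodulin, was at 12.8 CPM there against 16.8 and 15.05 CPM, and Comp at 35.4 against 23.3 and 40.1 CPM. Over the 11 markers the sum was 186, 139 and 173 CPM in wild-type and 146, 163 and 160.2 CPM in 5x21-OR1A1 tissue, and 0 passed. Cartilage collagens per CPM of these markers were 1.76, 1.36 and 1.52 against 1.57, 1.79 and 1.64. The part of these markers in the values of Col10a1 and Col27a1 was not tested.

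**Figure D5:**
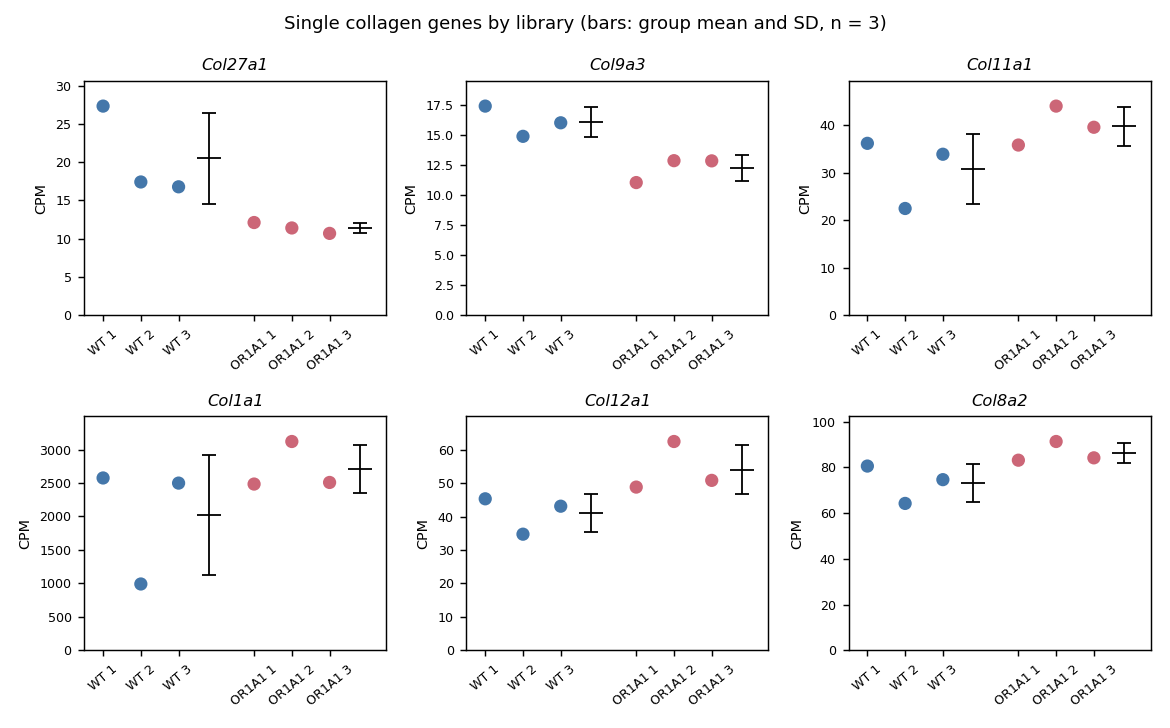
Level in CPM (y axes, from 0) of 6 collagen genes in each library (x axis; blue points wild-type, red points 5x21-OR1A1), with the group mean as a horizontal line and the SD as bars (n = 3 each). Groups are apart for Col27a1, Col9a3, Col12a1 and Col8a2, and overlap for Col11a1 and for Col1a1, where wild-type library 2 stands at 992 CPM.

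Basement membrane collagens were less low in wild-type library 2 than fibrillar or cartilage collagens, with 0.841 times the mean of the other wild-type libraries against 0.408 and 0.636 times. Their summed level was 147, 102 and 96.1 CPM in wild-type and 127, 131 and 124 CPM in 5x21-OR1A1 libraries. Here wild-type libraries 2 and 3 were both low and library 1 high, and the transgenic libraries lay between. The means were 115 ± 27.7 and 127 ± 3.22 CPM (SD, n = 3 each), a log2 ratio of 0.15. The ratio was 0.36, 0.069 and 0.034 without wild-type libraries 1, 2 and 3. None of 9 members passed, 8 lay above 0, and the median log2 fold change was 0.20, or 0.36, 0.099 and 0.059 without the same libraries in turn. Against endothelial markers, whose vessels have a basement membrane, the ratio was 0.841, 0.958 and 0.712 in wild-type and 0.891, 0.873 and 0.772 in 5x21-OR1A1 tissue, with overlap.

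Type IV collagen has 6 chain genes in 3 head-to-head pairs, and the pairs differed widely in level. Col4a1 and Col4a2, the chains found in nearly all basement membranes, were at 36.4, 25.1 and 25.8 CPM and at 35.4, 24.5 and 20.9 CPM in wild-type libraries. In 5x21-OR1A1 libraries Col4a1 was at 32.1, 33.7 and 32.4 CPM and Col4a2 at 29.7, 32.4 and 31.4 CPM. Log2 fold changes were 0.17 and 0.21 (SE 0.14 and 0.18), that of Col4a1 was 0.079 without wild-type library 2, that of Col4a2 was 0.056 without wild-type library 3, and counts of Col4a1 per count of Col4a2 stayed between 1.02 and 1.24 in all 6 libraries. The first exons of both genes share 22 bases on opposite strands at chr8:11312805-11312826, shown on the plus strand (RefSeq, GRCm38.p6) with a GC box in capitals because both genes start there.
Col4a1 and Col4a2: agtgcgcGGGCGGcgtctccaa
Col4a4 and Col4a3 start 71 bases apart on chromosome 1, and Col4a6 and Col4a5 start 1308 bases apart on the X chromosome. Per kilobase of merged exons, Col4a1 and Col4a2 were at 3.90 and 4.07 CPM in wild-type tissue, Col4a5 and Col4a6 at 0.702 and 0.133, and Col4a3 and Col4a4 at 0.0415 and 0.0691. The same order held in 5x21-OR1A1 libraries, at 4.39 and 4.71, 0.856 and 0.162, and 0.0478 and 0.0707 CPM per kilobase.

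Col15a1 and Col18a1 encode the multiplexin collagens of basement membrane zones, and Col7a1 the anchoring fibrils under stratified epithelia. Col15a1 was at 10.7, 5.03 and 5.12 CPM in wild-type and 7.55, 9.57 and 9.24 CPM in 5x21-OR1A1 libraries. Wild-type library 1 was the highest of all 6, and the value of 0.34 (SE 0.29; edgeR adjusted p = 0.615) became 0.79 without it, with an edgeR adjusted p of 0.0486, and 0.16 without wild-type library 2. Within sexes the difference of Col15a1 was -0.18 between females and 0.57 between males. Col18a1 stood at 41.8, 33.4 and 27.7 CPM against 38.5, 35.5 and 35.2 CPM (log2 fold change 0.09), and Col7a1 at 13.8, 7.63 and 10.8 CPM against 10.3, 10.7 and 8.91 CPM (-0.10, or -0.30 without wild-type library 2).

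Classes were also set against each other within a library, with no test. Cartilage collagen CPM per CPM of fibrillar collagens was 0.0629, 0.0876 and 0.0497 in wild-type and 0.0433, 0.0465 and 0.0484 in 5x21-OR1A1 libraries. All transgenic ratios lay below all wild-type ratios, but narrowly, with 0.0484 as the highest transgenic and 0.0497 as the lowest wild-type ratio. Wild-type library 2 had the highest, and the difference was -0.50 on the log2 scale, or -0.28 without that library. Basement membrane collagen CPM per CPM of fibrillar collagens was 0.0281, 0.0475 and 0.0181 in wild-type and 0.0240, 0.0209 and 0.0228 in 5x21-OR1A1 libraries. These groups overlapped, and the log2 difference of -0.36 was -0.0015 without wild-type library 2.

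Fibril-associated collagens bind the surface of fibrils through interrupted helices. Their sum was 185, 113 and 161 CPM in wild-type and 171, 198 and 179 CPM in 5x21-OR1A1 libraries, and the median log2 fold change over 5 tested members was 0.31, or 0.0053 without wild-type library 2. Col12a1, which links fibrils in dense connective tissue, was at 45.3, 34.7 and 43.1 CPM in wild-type and 48.8, 62.4 and 50.8 CPM in 5x21-OR1A1 libraries. The groups of Col12a1 did not overlap, and its log2 fold change was 0.40 (SE 0.13; edgeR adjusted p = 0.179). Col14a1, a relative of Col12a1 named after its values were seen, also had no overlap, at 17.02, 17.03 and 13.9 against 18.7, 19.9 and 21.0 CPM (log2 fold change 0.31). Unlike most collagens, Col14a1 was not low in wild-type library 2.

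The other fibril-associated genes overlapped between genotypes. Col16a1, found near fibrils and basement membranes, was at 86.8, 48.2 and 72.5 against 72.2, 84.5 and 74.6 CPM, and its value of 0.16 was -0.04 without wild-type library 2. Col22a1, a collagen of tissue junctions, was at 29.4, 10.6 and 29.5 CPM in wild-type and 29.0, 29.5 and 29.8 CPM in 5x21-OR1A1 libraries. Apart from wild-type library 2, its 5 values lay within 1 CPM of each other, and its log2 fold change went from 0.35 to 0.0053 without that library. Col20a1 was high in wild-type library 1, at 6.29, 2.69 and 1.59 against 2.29, 1.92 and 2.69 CPM (log2 fold change -0.62, SE 0.45), and its value was 0.09 without that library.

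Collagens of beaded filaments and networks were at 293, 205 and 257 CPM in wild-type and 281, 297 and 272 CPM in 5x21-OR1A1 libraries in sum. None of 10 passed, 10 lay above 0, and the median log2 fold change was 0.19. Col8a2, of the hexagonal networks under endothelia, was at 80.6, 64.3 and 74.7 against 83.2, 91.3 and 84.2 CPM with no overlap (log2 fold change 0.24, SE 0.10; edgeR adjusted p = 0.262), or 0.16 without wild-type library 2. Col6a1 and Col6a2, chains of the beaded type VI filaments around cells, gave values of 0.11 and 0.08, or 0.014 and -0.092 without wild-type library 2. Col6a1 was at 67.5, 52.1 and 63.9 against 67.7, 69.0 and 61.4 CPM, and Col6a2 at 77.4, 48.6 and 71.5 against 72.4, 71.9 and 64.3 CPM. The third chain of that filament, Col6a3, named after its values were seen, was more uneven, at 35.8, 12.1 and 23.3 against 28.5, 29.9 and 30.0 CPM. Its log2 fold change of 0.32 was 0.0032 without wild-type library 2. Col6a6, which had the largest positive log2 fold change of all collagens (0.59, SE 0.53, or 0.25 without wild-type library 2), was close to the limit of counting, at 0.413, 0.110 and 0.138 against 0.354, 0.377 and 0.258 CPM.

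Transmembrane collagens summed to 64.8, 52.1 and 58.2 CPM in wild-type and 69.5, 69.6 and 56.7 CPM in 5x21-OR1A1 libraries. Col17a1, which anchors basal epithelial cells in hemidesmosomes, was at 21.3, 14.9 and 16.7 against 24.0, 26.1 and 18.3 CPM (log2 fold change 0.37, edgeR adjusted p = 0.321, SE 0.17). Col13a1, of cell adhesions, was at 12.9, 5.77 and 13.6 against 12.7, 13.4 and 10.6 CPM, and its value of 0.19 became -0.11 without wild-type library 2. Col23a1 was the steadiest of this class, at 27.2, 29.3 and 25.3 against 29.3, 26.7 and 24.9 CPM, with a log2 fold change of -0.015 and a 95% interval from -0.23 to 0.20. That interval of the fold of Col23a1 ran from 0.853 to 1.15, and the log2 value was 0.046 without wild-type library 2.

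Per length, Col1a1 was the most abundant collagen in wild-type tissue, at 308 ± 136 CPM per kilobase of merged exons (SD, n = 3), followed by Col1a2 at 142 ± 61.4 and Col3a1 at 31.8 ± 10.7. Col1a1 was above Col1a2 in each of the 6 libraries on this scale. With the longest coding transcript as the length, Col1a1 stood at 341, Col1a2 at 329 and Col3a1 at 56.2. The gap between the type I chains, and their order within a library, thus depends on the length used. Next came Col11a2 at 17.9 ± 7.59, Col8a2 at 16.3 ± 1.84, Col6a1 at 13.96 ± 1.84 and Col16a1 at 10.2 ± 2.89 CPM per kilobase. Col11a2 and Col8a2 differed by less than the SD of Col11a2, while Col8a2 was above Col6a1, and Col6a1 above Col16a1, in each wild-type library. Ranks here depend on the length too, since by the longest transcript Col6a2 stood at 14.1 and Col16a1 at 13.3. In 5x21-OR1A1 libraries Col1a1 was at 412 ± 54.9, Col1a2 at 192 ± 12.4, Col3a1 at 40.7 ± 0.578, Col8a2 at 19.2 ± 0.992 and Col11a2 at 18.97 ± 3.09 CPM per kilobase. The lowest tested collagens were Col6a6 and Col4a3, at 0.0240 and 0.0415 CPM per kilobase in wild-type tissue.

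Genes that make, bind and remove collagen were counted from 7 lists of 100 genes in the table. Of 97 tested, 0 passed by edgeR, against 2.71% of all genes, and 13 had an unadjusted p under 0.05, against 17.1%. DESeq2 called 2 higher and 1 lower, against 1.61 and 4.68% of all genes, and limma-voom called 0 against 2.61%. Their median log2 fold change was 0.14, or 0.035 without wild-type library 2. In that library 63 of 97 were lowest, against 24.7% of all tested genes. Of these lists, 22 modifying and folding genes had a median of 0.14 (0.043 without that library), 12 processing and cross-linking genes 0.12 (-0.068), 12 fibril-binding genes 0.16 (0.073), and 15 basement membrane partners 0.12 (0.024). The 10 collagen receptors had a median of 0.18 (0.068), 12 proteases and inhibitors 0.12 (-0.049), and 14 TGF-beta genes 0.062 (0.038). The medians of the processing genes and of the proteases thus changed sign without that library.

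The nearest to a call in these lists were Nid1, Thbs2 and Pcolce2. Nid1 encodes nidogen, which ties laminin to collagen IV, and was at 13.3, 11.9 and 12.6 CPM in wild-type and 16.4, 17.9 and 15.6 CPM in 5x21-OR1A1 libraries (log2 fold change 0.40; edgeR adjusted p = 0.0909, DESeq2 0.0370). Thbs2, a matrix glycoprotein that affects fibril shape, was at 26.4, 23.3 and 25.7 against 30.9, 33.3 and 30.2 CPM (0.32; edgeR adjusted p = 0.0947, DESeq2 0.0475). Pcolce2, an enhancer of procollagen trimming, was at 151, 222 and 201 against 129, 143 and 117 CPM (-0.56; edgeR adjusted p = 0.103, DESeq2 0.00424). All 3 had groups that did not overlap, but they were picked for a low adjusted p. Of the 97 tested, 16 lay wholly above and 2 wholly below wild-type, against 11.4 and 12.5% of all tested genes. Pcolce2 was high in wild-type library 2, where most collagens were low.

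Other named genes of these lists did not pass with all 6 libraries in the fit. P4hb, a subunit of the prolyl hydroxylase that stabilises the helix, had a value of 0.11 (0.063 without wild-type library 2), the hydroxylase chain P4ha1 -0.20 (-0.12), and Sec24d, of the coat that exports procollagen, 0.18. Loxl2, a cross-linking oxidase, had a value of 0.44 (0.27 without that library) and the fibril-binding proteoglycan Ogn 0.23. Sparc, a collagen-binding glycoprotein of bone and stroma, was at 1695, 865 and 1921 CPM in wild-type and 1701, 1730.0 and 1917 CPM in 5x21-OR1A1 libraries, low in the same library as Col1a1. Its value was 0.26, and -0.015 without wild-type library 2. Agrn (0.28), the receptor subunit Itgb1 (0.20), Lair1 (0.53), Timp2 (0.09), Timp3 (0.27), Mmp16 (-0.42), Tgfbr1 (0.21), Tgfbr3 (0.30) and Postn (0.20) did not pass either. Without wild-type library 2, Lair1 was at 0.31, Timp2 at 0.052 and Postn at -0.020. Ctgf, a matrix target of TGF-beta named after its values were seen, had a value of -0.56 and passed without 5x21-OR1A1 library 1 (-1.42; edgeR adjusted p = 0.0341), where 0.79% of genes were called.

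Mature olfactory sensory neuron markers were lower in 5x21-OR1A1 libraries. Their sum was 16210.2, 21698 and 19685 CPM in wild-type and 11608, 12444 and 11290.2 CPM in 5x21-OR1A1 libraries. All 11 had a log2 fold change below 0, and edgeR called 3 lower, against 2.2% of all tested genes. All 7 immature neuron markers lay above 0, and edgeR called 4 higher, against 0.519% of all genes. Of all 19267 tested genes, 9068 lay below 0 and 10199 above. Sums of the immature markers were 1086, 1325 and 1174 CPM in wild-type and 1526, 1653 and 1554 CPM in 5x21-OR1A1 tissue. CPM are relative values, and the part of either list in the collagen values was not tested. The library lowest in collagen, wild-type library 2, was the highest in the mature markers, with a ratio of 1.21 to the mean of the other wild-type libraries. Sums of immature neuron (1.17), glia (1.10) and smooth muscle markers (1.07) in that library were also above that mean. The smooth muscle sum was led by Rgs5, and by gene the median log2 difference was -0.047. Endothelial markers were at 0.689 and cartilage markers at 0.770 times the mean. Sums of blood markers were at 0.555, of horizontal basal cell markers at 0.781 and of sustentacular and gland markers at 0.804 times it. By gene, 1 of 7 blood, 2 of 6 basal and 1 of 9 sustentacular and gland markers were lowest in wild-type library 2. The same held for 9 of 10 endothelial and 5 of 11 cartilage markers, against 24.7% of all tested genes. Wild-type sums were 1760, 723 and 845 CPM for blood and 340, 340 and 530 CPM for basal cell markers.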

How the data were processed

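RNA of dissected main olfactory epithelium was sequenced as nonstranded poly-A libraries with single-end reads of 100 bp, per the labels' protocols. The authors deposited 1 table of raw read counts by gene symbol, not normalized. The submitters' processing notes name TopHat2 2.1.1, HTSeq 0.9.1 and GRCm38.p5. Annotation release and counting options: not given in the sources used here. Library totals ran from 27506217 to 35804712 counts, and replicates differed by more than counting noise.

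Counts of all genes were fitted with edgeR 4.0.16 (R 4.3.3) after the default expression filter and TMM scaling. The filter asked for 15 counts in total. It also asked, in as many libraries as a group holds, for the CPM that 10 counts make at the median library total. Genotype was tested with the quasi-likelihood test, and p-values were adjusted by Benjamini-Hochberg over 19267 genes. The test was tested on simulated data. CPM per kilobase used merged exons of GENCODE release M21 on GRCm38, where all 44 collagens were found. Promoters came from RefSeq. Alternatives were other scalings, filters and thresholds, DESeq2 1.42.0, limma-voom 3.58.1, sex, the replicate number as a block, and leaving out each library.

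The collagen genes and all lists were chosen with earlier results of these data known. Named with values were collagens called, the 3 of each class with the highest level per length, the largest positive and negative change of each class, and of every other list the 2 genes with the lowest adjusted p and the 1 with the highest CPM. Of the cell type markers, which the same rule covers, only those beside a result are printed. Genes named otherwise are marked as such or stand beside a result as markers. No set test was made, and p-values were not adjusted over a list.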

Additional observations from a re-analysis of the deposited data

How the results depend on the processing

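With 3 libraries a group, only sizeable differences could pass, and wild-type libraries 1 and 2 decided the values marked in the report. Under alternatives, 504 values of single collagens and 293 summary values kept their direction and side of the threshold or moved by less than the spread between replicates. Of the rest, 19 values of single collagens changed sign, 4 newly passed the threshold and 2 levels per length moved, as did 16 counts of calls. Collagens called lower were 0 and became 1 with no filter and 1 with DESeq2 (Col27a1 each time); leaving out 1 library gave 0 to 1 lower and 0 to 1 higher. Partner genes called higher were 2 with DESeq2, and those called lower were 1 with no filter, 1 with DESeq2 and 0 to 1 with 1 library left out. All genes called were 523, and 1212 with DESeq2, 289 with sex as a covariate, 154 at an adjusted p under 0.01, and 150 to 626 with 1 library left out. The cause was not tested.

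Among the collagens named with a log2 fold change, directions turned for Col10a1 (0.049 with limma-voom, 0.053 with the replicate block, -0.43 to 0.57 with 1 library left out), Col11a2 (-0.081 with sex, -0.22 to 0.35 with 1 library left out) and Col23a1 (0.014 with sex, -0.082 to 0.046). With 1 library left out, ranges that crossed 0 were -0.34 to 0.12 for Col2a1, -0.11 to 0.40 for Col13a1, -0.042 to 0.35 for Col16a1, -0.046 to 0.25 for Col18a1, -0.96 to 0.089 for Col20a1, -0.092 to 0.21 for Col6a2 and -0.30 to 0.12 for Col7a1. Replicate numbers are shared between genotypes, but deviations of same-numbered libraries did not go together (Pearson r of -0.333, 0.0723 and -0.17). The replicate block called 0 collagens and 377 genes. The length from the longest transcript was chosen after seeing the data.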
